A study of Mus musculus with 12 samples.

Results

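Loss of myostatin was compared in mice that ran voluntarily. The comparison took the triceps brachii, a muscle of the upper forelimb, of 3 active myostatin-reduced mice (AM) and 3 active wild-type mice (AW), 6 of the 12 mice profiled, and covered every gene with a mean of at least 10 normalized reads over these 6 mice. That left 7292 of 10187 genes. All mice were male C57/BL6 and ate chow with 0.025% tamoxifen for 6 weeks. The drug activated Cre recombinase and removed myostatin where the Mstn gene was floxed, and the control mice received it too. At 6 months of age the active mice were moved to cages of their own with running wheels, which they kept for 12 weeks, and the sampled genotypes were matched for how much they ran. The other 6 mice, 3 sedentary myostatin-reduced (IM) and 3 sedentary wild-type (IW), had no wheel. The promoter that drives Cre, and whether the controls carried Cre, are not given in the sources used here, and the depletion began in adult muscle.

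Myostatin is a secreted growth factor of the TGF-beta family, made mainly by skeletal muscle fibres, that restrains muscle mass. It is cut by proteases to free the mature factor, binds activin type II receptors together with type I receptors, and signals through Smad2 and Smad3, while antagonists such as follistatin bind it outside the cell. The insulin-like growth factor, Akt and mTOR cascade acts in the opposite sense on fibre growth, and atrophy ligases under FoxO control mark proteins for breakdown.

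The Mstn gene, of 3 exons, occupies bases 53118507 to 53124923 of chromosome 1 (NCBIM37, the same assembly as mm9) and is read from the plus strand. The third exon runs from 53123095 to 53124923, so that 1829 of 2682 exon bases, 68.2%, lie in it, and the deposited value sums reads over all exons. Which exon was floxed is not given in the sources used here. The stretch below opens the third exon (chr1:53123095-53123193, plus strand, coding) and is shown because the mature factor is encoded after the codons in capitals, which mark the site where proteases release it.
Mstn exon 3: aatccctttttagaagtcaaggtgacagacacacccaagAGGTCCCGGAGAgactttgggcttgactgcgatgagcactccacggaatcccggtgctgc

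The targeted gene matched the labels in each active mouse. Mstn stood at 110.3, 90.1 and 80.8 normalized reads in the AW mice and at 16.1, 8.7 and 13.5 in the AM mice. The groups did not overlap, and the mean of 12.8 ± 3.76 in AM was 86.4% below the mean of 93.7 ± 15.1 in AW (SD, n = 3 each). The log2 difference of AM minus AW, taken on log2(value + 1) in all that follows, was -2.81 ± 0.22 (SE, limma adjusted p = 4.97e-05). An exact two-sided permutation test over the 6 mice gave p = 0.1, the smallest that 3 against 3 allows here and below.

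Depth overlapped between the active groups. An estimated 9023561 to 11687128 reads per AW mouse and 10688201 to 12188516 per AM mouse fell in the genes of the table, and 3 reads corresponded to 0.231 to 0.311 normalized reads. Of the mice, 2 stood apart on slow-fibre genes, the contractile genes of slow oxidative fibres. Myh7, the slow myosin heavy chain, had 15.6, 446.8 and 498.2 normalized reads in AW mice 1 to 3 and 164.5, 392.5 and 2.73 in AM mice 1 to 3. AW mouse 1 and AM mouse 3 were thus far below the other 4, and the calls, the named genes and the list medians below were also computed without them.

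Only 15 of the 7292 genes, 0.206%, passed an adjusted p of 0.05 between AM and AW, 7 of them higher in AM and 8 lower. In each of the 15 the AM and AW mice did not overlap, as the plot of these genes by mouse shows. Over all genes the median of the log2 difference was -0.01 and the median of its absolute size 0.09. The groups were apart with AM higher in 557 genes (7.64%) and with AM lower in 546 (7.49%), and an unadjusted p under 0.05 was reached by 514 genes higher in AM (7.05%) and 381 lower (5.22%).

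**Figure D1:**
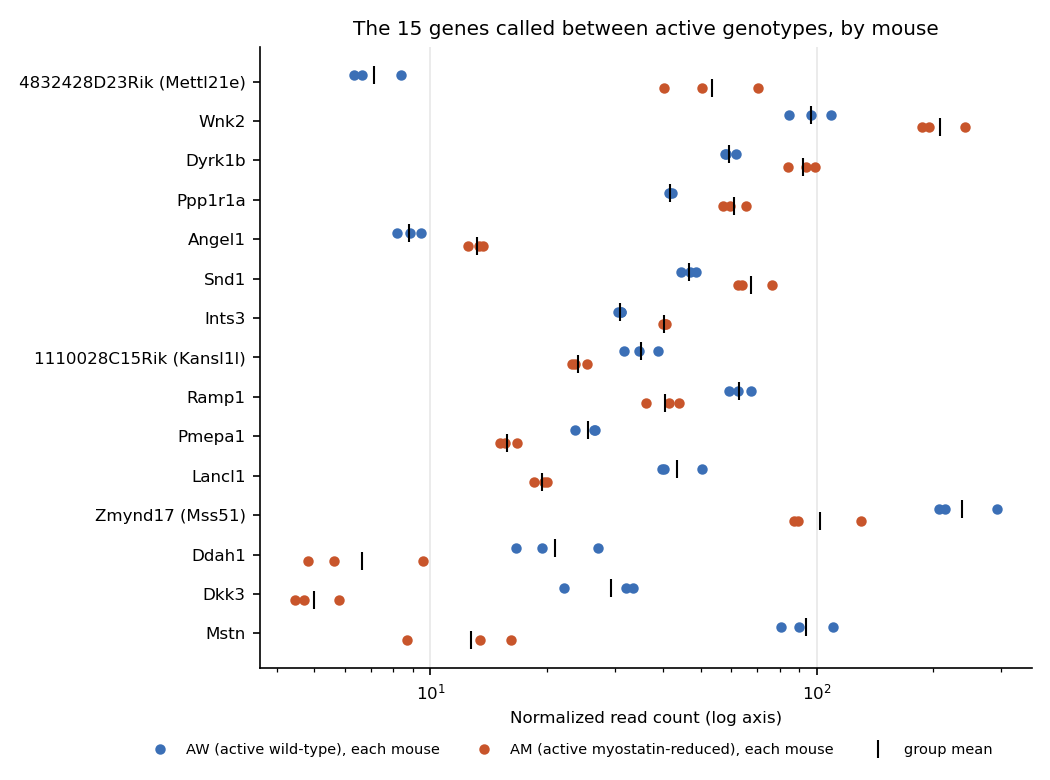
Normalized read counts (log axis) of the 15 genes called between AM and AW, ordered by log2 difference, with 1 point per mouse and a bar at each group mean (n = 3). In each gene the 3 AM points lie to one side of the 3 AW points, from 4832428D23Rik, about 7.52 times higher in AM, to Mstn, 86.4% lower.

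The gene with the smallest p was 4832428D23Rik, now named Mettl21e, a muscle methyltransferase of the METTL21 family. It had 8.4, 6.33 and 6.67 normalized reads in AW and 40.2, 50.3 and 70.4 in AM. All AM mice were far above all AW mice, and the ratio of the means was 7.52 (log2 2.72 ± 0.19, limma adjusted p = 3.32e-05). Dkk3, a secreted protein of the Dickkopf family, had 33.5, 22.1 and 32.1 in AW and 5.8, 4.47 and 4.71 in AM. The AW mean was 5.86 times the AM mean (log2 -2.32 ± 0.19, limma adjusted p = 4.97e-05). Lancl1, a glutathione-binding protein, had 50.3, 40.3 and 39.8 in AW and 19.99, 18.6 and 19.6 in AM (log2 -1.12 ± 0.10, limma adjusted p = 0.000113). The AM mice were close to each other in this gene, and the mean of the AW mice was 2.24 times theirs.

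A second group of called genes was set apart by differences of more than 1 on the log2 scale. Ddah1, which degrades an inhibitor of nitric oxide synthase, had 27.1, 16.6 and 19.4 in AW and 5.63, 9.55 and 4.81 in AM (log2 -1.55 ± 0.22, limma adjusted p = 0.0131). Wnk2, a kinase that regulates ion transporters, had 108.7, 84.9 and 96.4 in AW and 187.1, 195.0 and 242.0 in AM, which was 2.15 times the AW mean (log2 1.10 ± 0.17, limma adjusted p = 0.0231). Every AM mouse was above every AW mouse in Wnk2. Zmynd17, now Mss51, a protein linked to mitochondria of skeletal muscle, had 292.1, 214.5 and 206.6 in AW and 87.2, 89.3 and 129.6 in AM (log2 -1.22 ± 0.19, limma adjusted p = 0.0244).

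The other 8 called genes differed by 0.37 to 0.66 in absolute log2. Higher in AM were Dyrk1b, a kinase active in muscle differentiation (59.2 ± 2.24 in AW, 92.1 ± 7.47 in AM, SD, n = 3), Ppp1r1a, an inhibitor of protein phosphatase 1 (41.6 ± 0.35 and 60.8 ± 4.40), Angel1, a nuclease-family protein (8.81 ± 0.64 and 13.2 ± 0.61), Snd1, an RNA-binding coactivator (46.8 ± 2.14 and 67.6 ± 7.89), and Ints3, a subunit of the Integrator complex (30.9 ± 0.28 and 40.3 ± 0.30). Lower in AM were Pmepa1, Ramp1 and 1110028C15Rik. Ramp1, a partner subunit of the receptor for calcitonin gene-related peptide, had 62.4, 59.4 and 67.3 in AW and 36.2, 43.9 and 41.4 in AM. 1110028C15Rik, now Kansl1l, a relative of a subunit of a histone acetyltransferase complex, had 38.8, 34.6 and 31.7 in AW and 25.5, 23.7 and 23.2 in AM. Their limma adjusted p-values lay between 0.0176 for Ppp1r1a and 0.0425 for Ramp1.

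The minimum of 10 was a mean over both groups, and 4 of the 15 met it only through the group where they were high, 4832428D23Rik and Angel1 through AM and Dkk3 and Ddah1 through AW. The 15 calls differed in how often they still passed when single mice were left out. Leaving out a mouse cuts its group to 2 and lowers power, so a lost call does not show that the difference rested on that mouse. For example, over the 12 fits the log2 difference of Ints3 was 0.365 to 0.378 and that of 1110028C15Rik -0.58 to -0.44. Mstn, 4832428D23Rik, Dkk3 and Lancl1 were called whichever of the 12 mice was left out. Ddah1 was called in 3 of the 6 fits without an active mouse, Ppp1r1a in 2, Wnk2, Zmynd17 and Snd1 in 1 each, and the other 6 in 0. The number of calls was 11, 6 and 4 without AW mouse 1, 2 or 3 and 5, 9 and 5 without AM mouse 1, 2 or 3. Without both AW mouse 1 and AM mouse 3 it was 5, the 4 genes above and Zmynd17. A fit with the slow-fibre score (the mean log2 deviation of the slow-fibre genes) as a covariate called 29 genes, all 15 among them.

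The sedentary mice gave the same contrast in other animals, but both contrasts of a gene shared the same estimate of its spread. Genes called between AM and AW were thus partly chosen for a small spread in the sedentary mice too. The shares over all genes given below do not allow for that. Of the 14 called genes besides Mstn, all 14 had the same sign in IM minus IW, against 64.3% of all genes tested. The IM and IW mice did not overlap in that direction in 6 of the 7 genes higher in AM, where 12.9% of all genes did so, and in 7 of the 7 lower genes, where 12.7% did. In 10 of the 14 the sedentary difference was called too, which held for 177 genes (2.43%) of all tested. The 177 became 23, 158 and 47 without IW mouse 1, 2 or 3 and 25, 37 and 32 without IM mouse 1, 2 or 3, and in these fits 7 to 10 of the 14 were called. The other 4 in the fit of all mice were Ppp1r1a, Snd1, Ints3 and 1110028C15Rik, with sedentary log2 differences of 0.17, 0.35, 0.24 and -0.20. A p that misses the threshold does not show that the sedentary genotypes were alike in these genes.

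**Figure D2:**
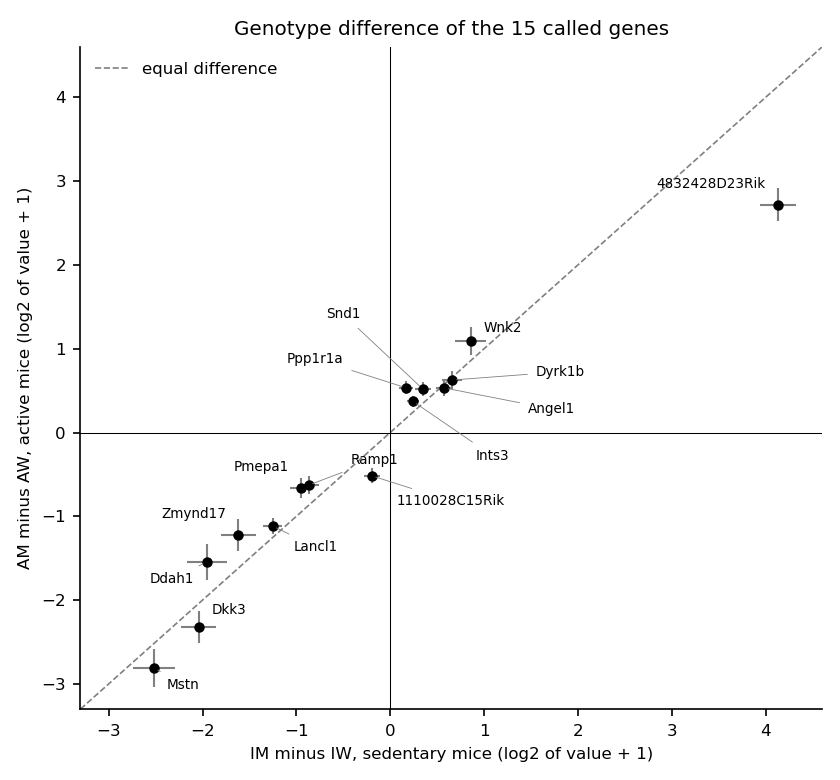
Genotype difference of the 15 called genes in sedentary mice (horizontal, IM minus IW) and active mice (vertical, AM minus AW), both on log2(value + 1) with bars of 1 SE from the 12-mouse fit (n = 3 per group). All points lie in the lower left or upper right quadrant, and 4832428D23Rik lies furthest below the dashed line of equal differences.

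Whether the genotype difference itself differed with activity was tested by the interaction, the difference AM minus AW less the difference IM minus IW. No gene passed in limma (smallest adjusted p = 0.89), while 298 genes (4.09%) had an unadjusted p under 0.05. That count was 828 without AM mouse 1, 176 without AM mouse 2, 476 without IW mouse 2 and 198 without IW mouse 3. Among the 15 called genes, 3 were below that unadjusted level. In 4832428D23Rik the wild-type mean was 7.13 ± 1.11 in active and 3.20 ± 0.66 in sedentary mice, the myostatin-reduced mean was 53.6 ± 15.4 and 72.6 ± 12.7, and the interaction was -1.41 ± 0.27 (unadjusted p = 0.000205 in limma). Ppp1r1a and 1110028C15Rik had interactions of 0.36 and -0.32.

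The genes with a mean of at least 50 and the smallest interaction p were Itgb1bp3, Fkbp5 and Klhdc3. Itgb1bp3, now Nmrk2, a kinase of nicotinamide riboside, had 363.7, 296.0 and 309.9 normalized reads in AW and 211.5, 216.3 and 179.1 in AM. It was lower in all AM mice, while sedentary mice overlapped, with 157.0, 197.8 and 308.9 in IW and 308.9, 300.4 and 349.4 in IM, and the interaction was -1.26 ± 0.26 (limma adjusted p = 0.89). Fkbp5, a co-chaperone of the glucocorticoid receptor, had 40.5, 49.8 and 48.6 in AW and 58.3, 54.5 and 61.1 in AM, and in sedentary mice the order of the genotypes was turned. Klhdc3 had a log2 difference of 0.04 in active and -0.44 in sedentary mice.

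Mstn shares its chromosome with 4 other called genes, 4832428D23Rik 8.84 Mb before it and 1110028C15Rik, Lancl1 and Ramp1 13.6, 13.9 and 40 Mb after it. In the 25 Mb on either side of Mstn 128 other genes were tested and 3 were called (2.34%), against 1 of 308 (0.325%) on the rest of chromosome 1 and 10 of 6815 (0.147%) on other chromosomes. In that window AM was apart from AW with higher values in 7 genes (5.47%) and with lower values in 15 (11.7%), against 7.64% and 7.49% of all genes and 5.19% and 10.4% of the rest of chromosome 1. DNA that came along with the floxed allele and the loss of myostatin cannot be told apart in these groups. The plot of chromosome 1 shows the called genes among neighbours that mostly lie near 0. Some genes of the window that were not called lie further off, among them Igfbp5 (0.98), Ankrd23 (-0.55) and Plekhb2 (-0.51).

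**Figure D3:**
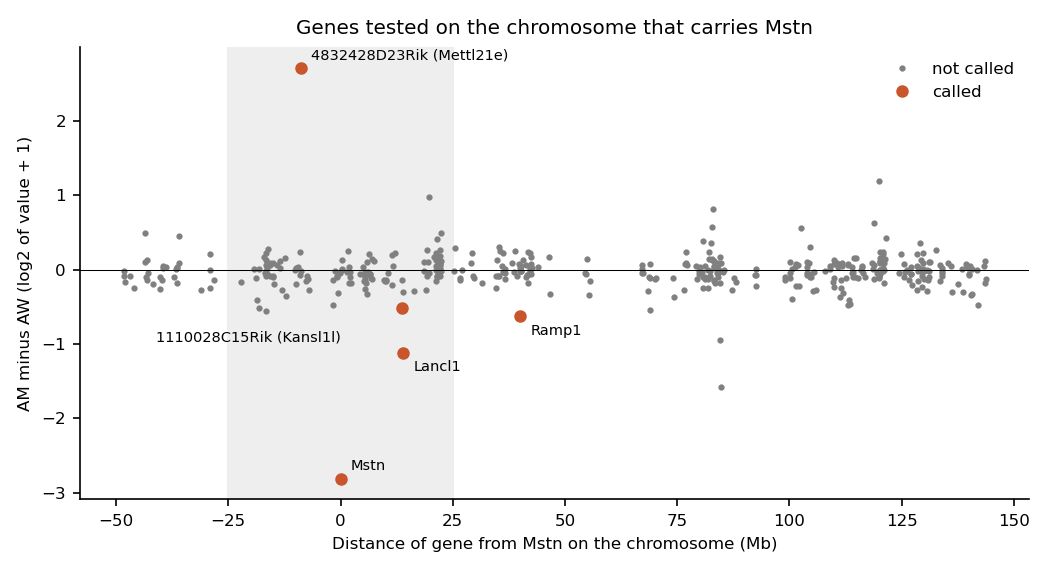
Difference AM minus AW on log2(value + 1) of the 437 genes tested on chromosome 1 against their distance from Mstn in Mb, with the 25 Mb on either side shaded and called genes in colour. Within the shaded window 4832428D23Rik (2.72) and Lancl1 (-1.12) lie beyond all genes that were not called, whereas 1110028C15Rik (-0.52) lies at the edge of their range.

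Genes of higher level gave further differences that did not pass the adjusted threshold. Actc1, the actin of heart and of developing muscle, had 49.3, 35.2 and 24.2 normalized reads in AW and 188.7, 155.8 and 152.3 in AM. The groups were far apart, with an AM mean of 4.57 times the AW mean, at a limma adjusted p of 0.0624 (log2 2.21 ± 0.41), and Actc1 was called in sedentary mice (log2 2.66). Glul, glutamine synthetase, had 151.7, 167.9 and 144.8 in AW and 225.7, 230.0 and 227.3 in AM. Naca, Atp1b2, Ociad2 and Atn1 were also apart between the groups, with log2 differences of 0.84, 0.63, 0.63 and 0.56. On the lower side Ankrd23, a titin-binding protein of the sarcomere, had 1998, 2067 and 2283 in AW and 1276, 1730 and 1362 in AM. Rcan1, an inhibitor of calcineurin, had 99.5, 91.6 and 94.4 in AW and 60.8, 74.4 and 73.9 in AM, and D0H4S114 (now Nrep) and Plekhb2 had log2 differences of -0.52 and -0.51.

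In the myostatin and activin pathway 38 of 50 listed genes in the table could be tested. Of these 2 were called, the targeted Mstn and Pmepa1, against 0.206% of all genes. At an unadjusted p under 0.05 there were 2 higher and 6 lower in AM, Mstn itself among the latter, against 7.05% and 5.22% of all genes. With higher values in AM 1 gene was apart and with lower values 8, again with Mstn, against 7.64% and 7.49%. The median log2 difference was -0.08, or 0.00 without AM mouse 3 and -0.01 without AW mouse 2. Of the ligands, Gdf11 and Tgfb1 were below the minimum and not tested. Tgfb2 had a log2 difference of 0.10, Tgfb3 of -0.10 and Bmp6 of 0.54 (unadjusted p = 0.0365 in limma). Bmp6 is 1 of the 2 higher genes and, at 8.94 normalized reads in AW and 13.6 in AM, met the minimum only through AM. Furin, a protease that cuts such ligands, had 0.14, and Wfikkn2, an antagonist of myostatin, -0.14. Fst, follistatin, had 1.35 to 3.38 normalized reads in the 6 mice and was not tested.

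Receptors for myostatin that could be tested showed small differences. Acvr2b, another activin type II receptor, was not tested, with 5.8, 5.08 and 5.87 normalized reads in AW and 6.13, 4.39 and 2.79 in AM. Acvr2a, an activin type II receptor, had 33.4, 32.6 and 35.7 normalized reads in AW and 47.96, 31.0 and 34.2 in AM. Acvr1b and Tgfbr1, type I receptors of the same signal, had log2 differences of -0.05 ± 0.09 and 0.09 ± 0.17. The groups overlapped in Acvr2a, Acvr1b and Tgfbr1, and leaving out 1 mouse turned the sign of each. Bmpr1a, a type I receptor of bone morphogenetic proteins, had 141.1, 125.1 and 135.2 in AW and 113.7, 103.8 and 98.1 in AM (log2 -0.34 ± 0.08, unadjusted p = 0.00138 and adjusted p = 0.166 in limma). Acvr1, another receptor of that branch, had -0.22 ± 0.07.

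Of the transducers, Smad2, Smad3 and Smad4 had log2 differences of 0.05, 0.10 and -0.10 with overlapping groups. Smad5, of the bone morphogenetic protein branch, had 64.2, 56.0 and 53.2 normalized reads in AW and 52.3, 50.1 and 46.4 in AM, all AM mice being below all AW mice (log2 -0.21 ± 0.08). Pmepa1, a membrane protein that the pathway induces and that limits Smad signals, had 26.6, 23.7 and 26.5 in AW and 16.8, 15.6 and 15.1 in AM (log2 -0.66 ± 0.12, limma adjusted p = 0.0409). Its sedentary log2 difference was -0.95. Ski, an inhibitor of Smads, had 0.23 ± 0.09 and its relative Skil -0.46 ± 0.22. Cyr61, a matrix-associated target, had 17.8, 15.5 and 18.2 in AW and 6.38, 11.6 and 9.33 in AM (log2 -0.88 ± 0.27, limma adjusted p = 0.261), and met the minimum only through AW.

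The promoters of the called genes were searched for letters that Smad proteins and muscle regulators are known to read. RefSeq gave promoter windows (250 bases before to 50 after the start, GRCm38.p6) for 10 of the 15 genes. These made 12 windows, since Dyrk1b and 1110028C15Rik had a pair each. The palindrome GTCTAGAC, read the same on both strands, was in 1 of the 12, against 0.213% of all 32851 windows. CAGACA on either strand was in 4 windows (21% of all) and the E-box CANNTG, its own reverse complement, in 11 (72.3%). Matches of the 3 motifs may overlap. The match was in Zmynd17 (Mss51), whose 250 bases before the start are shown with the palindrome in capitals (chr14:21316124-21316373, NCBIM37, minus strand), since the gene was lower in all AM mice. A match describes these letters and no binding was measured.
Zmynd17 promoter: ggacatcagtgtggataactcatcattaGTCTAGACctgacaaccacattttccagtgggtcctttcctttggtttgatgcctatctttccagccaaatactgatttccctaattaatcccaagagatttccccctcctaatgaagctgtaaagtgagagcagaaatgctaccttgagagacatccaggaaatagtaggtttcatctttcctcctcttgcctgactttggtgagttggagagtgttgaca

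No gene of the growth and breakdown lists was called, but only 0.206% of all genes were, so that lists of this size would rarely hold a call. Of 35 genes of the IGF, Akt and mTOR cascade 5 were higher and 4 lower in AM at an unadjusted p under 0.05, which 7.05% and 5.22% of all genes reached, with a median log2 difference of -0.01 that took either sign when single active mice were left out. Igfbp5, a carrier of insulin-like growth factors, had 1224, 507.3 and 584.3 normalized reads in AW and 1778, 1141 and 1368 in AM, where AW mouse 1 overlapped the AM range (log2 0.98 ± 0.27). Tsc2, a brake on mTOR, had 117.5, 125.2 and 130.1 in AW and 146.2, 158.0 and 156.2 in AM (log2 0.30 ± 0.08). Pik3cb and Pik3ca, catalytic subunits of the kinase below the receptor, were lower in all AM mice, with -0.51 and -0.21, and Pik3cb met the minimum only through AW. Of 27 atrophy ligases and FoxO factors 2 were higher, a share near that of all genes, and 3 lower at that level, among them Gadd45a (0.48 ± 0.14), Sesn1 (0.23 ± 0.07), Foxo4 (-0.24 ± 0.06) and the ligase Fbxo40 (-0.24 ± 0.08). Among 17 myogenic regulators 1 was higher, Mef2d (0.29 ± 0.09), and 2 were lower, with Tead1 at -0.29 ± 0.11.

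Differences in energy metabolism were small between the active genotypes. Of 75 nuclear genes of oxidative phosphorylation 69 had a negative difference, but the median was -0.06 and 2 passed an unadjusted p under 0.05, Ndufa13 (-0.19 ± 0.07) and Uqcrh (-0.15 ± 0.06), where 5.22% of all genes were lower. That median was -0.13 without AW mouse 1 and -0.02 without AM mouse 1, and in sedentary mice it was -0.20. Of 44 genes of the cytosolic ribosome 38 were negative, with a median of -0.10, and 3 passed that level, namely Rpl13a (-0.20 ± 0.06), Rps21 (-0.27 ± 0.09) and Rplp0 (-0.15 ± 0.06). Genes of one complex vary together from mouse to mouse, so these counts of signs are a description. Of the 13 mitochondrial messages mt-ND6 (0.48 ± 0.17) and mt-COX1 (0.30 ± 0.13) were higher at that level, against 7.05% of all genes.

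Of 28 genes of glycolysis and glycogen metabolism 4 were higher and 0 lower at an unadjusted p under 0.05, against 7.05% and 5.22% of all genes. The median was 0.07, and from 0.04 without AW mouse 3 to 0.14 without AW mouse 1. Gpi1, glucose-6-phosphate isomerase, had 961.9, 875.1 and 848.5 normalized reads in AW and 1052, 1026 and 1289 in AM, without overlap (log2 0.32 ± 0.10, limma adjusted p = 0.264). Pygm, muscle glycogen phosphorylase, had 0.31 ± 0.14 and Ppp1r3c, a glycogen-targeting subunit of protein phosphatase 1, 0.48 ± 0.22, both with overlapping groups. Actn3, the actinin of fast fibres, had 0.43 ± 0.17, and 14 of 16 fast-fibre genes had a positive difference. That median of 0.09 was 0.01 without AM mouse 3, 0.20 without AW mouse 1 and 0.0 after quantile normalization.

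Smaller groups held single genes of note. Pak1, a kinase activated by small GTPases, had 49.6, 58.0 and 50.5 normalized reads in AW and 89.7, 64.0 and 79.8 in AM (log2 0.54 ± 0.12, limma adjusted p = 0.132), and its sedentary difference was 1.05. Of 16 clock genes 2 were higher and 1 lower at an unadjusted p under 0.05, the latter Nr1d2, a repressor of the clock (-0.22 ± 0.09), against 7.05% and 5.22% of all genes. Per1 had 7.27, 17.7 and 9.13 in AW and 25.3, 24.4 and 25.7 in AM, and Cry2 had 36.0, 31.3 and 30.9 against 46.8, 42.9 and 53.9. All AM mice were above all AW mice in Per1 and Cry2, with limma adjusted p-values of 0.292 and 0.191. Trdn, triadin of the calcium release complex, had 0.54 ± 0.17 and Flnc, filamin C of the sarcomere edge, 0.31 ± 0.13. The groups overlapped in both, with limma adjusted p-values of 0.264 and 0.377.

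Slow-fibre genes overlapped between the genotypes. In 10 of 11 the difference was negative, with a median of -0.84, while 0 of 11 had an unadjusted p under 0.05, where 7.05% of all genes were higher and 5.22% lower. The groups were apart in 0 of 11, against 7.64% and 7.49% of all genes. Myl2, the slow regulatory light chain, had 9.78, 143.3 and 165.9 normalized reads in AW and 37.1, 102.3 and 2.02 in AM, and Atp2a2, the slow calcium pump, ranged from 37.3 to 449.0 across both groups. The slow-fibre score was 1.26 ± 1.98 in AW and 0.51 ± 1.91 in AM (SD, n = 3, exact permutation p = 0.5). The median became -1.83 without AW mouse 1 and 0.38 without AM mouse 3, as the plot of slow-fibre genes lets one see. Casq2, the cardiac calsequestrin, was the member with a positive difference (0.43 ± 0.32).

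**Figure D4:**
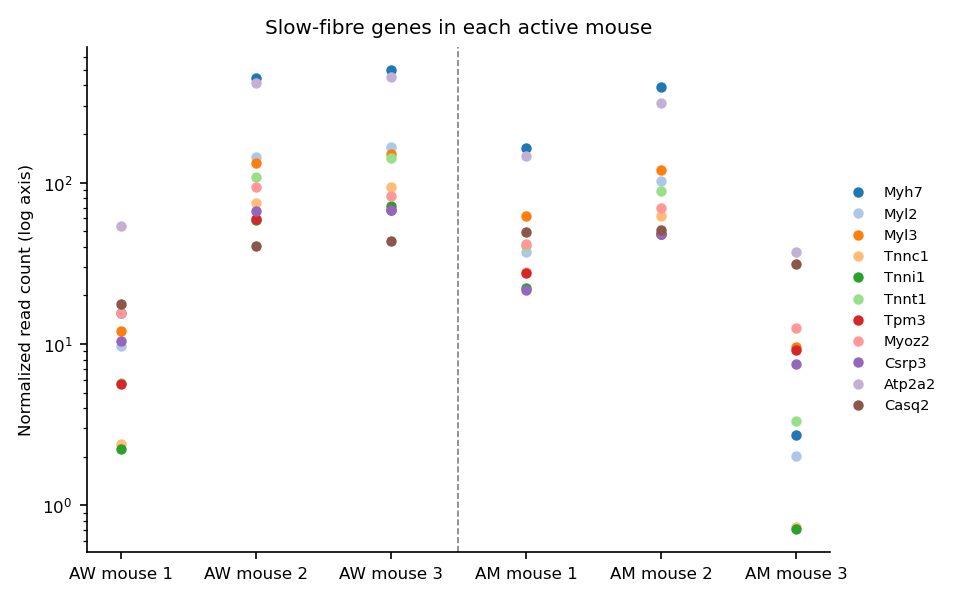
Normalized read counts (log axis) of the 11 slow-fibre genes in each active mouse, 1 colour per gene, with the genotypes split by the dashed line. AW mouse 1 and AM mouse 3 lie below the other 4 mice in all 11 genes, for Myh7 at 15.6 and 2.73 against 164.5 to 498.2.

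Markers of the other cells of muscle were read to show what the tissue samples held. Fewer cells of a type and less RNA per cell cannot be told apart in whole muscle. Skeletal muscle markers were high in each mouse, with a summed level of 163200 to 188000 normalized reads in AW and 167800 to 203200 in AM. Of 9 smooth muscle and pericyte markers all 9 had a positive difference, with a median of 0.43, and 2 had an unadjusted p under 0.05, Smtn (0.39 ± 0.10) and Acta2 (0.85 ± 0.36), against 7.05% of all genes that were higher. In sedentary mice 8 of the 9 were negative in IM minus IW, with a median of -0.28. Acta2, the actin of smooth muscle, had 8.74, 12.4 and 16.98 normalized reads in AW and 13.2, 30.8 and 29.2 in AM. The summed level of this list was 235.0 to 357.7 in AW and 318.0 to 448.9 in AM, and the median was 0.26 without AM mouse 2 and 0.20 without AW mouse 1, the lowest mouse in all 9. Myh11 and Tagln had 0.61 ± 0.32 and 0.56 ± 0.35, and Tagln, at 8.71 in AW and 13.8 in AM, met the minimum only through AM.

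Among Schwann cell markers, the myelin genes Mbp and Pmp22 had log2 differences of 0.68 ± 0.30 and 0.46 ± 0.18 in running mice and of -0.45 and -0.35 in sedentary mice. Mbp passed the minimum through its AM mean (8.10 normalized reads in AW, 13.6 in AM) and was below it without AM mouse 2. Pmp22 had 0.27 without AW mouse 1 and 0.28 without AM mouse 2. Endothelial markers had a median of 0.15, which was -0.09 without AW mouse 1 and 0.31 without AM mouse 1, with 0 of 11 below an unadjusted p of 0.05.

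Among fibroblast markers 0 were higher and 2 of 9 lower at that level, against 5.22% of all genes that were lower. Their median of -0.16 was -0.03 without AM mouse 3 and -0.30 without AM mouse 2. Dpt, dermatopontin, had 41.3, 46.8 and 38.9 normalized reads in AW and 33.0, 32.5 and 26.4 in AM, and Gsn, gelsolin, had a difference of -0.27 ± 0.10. Of 7 tenocyte markers 2 could be tested, Fmod and Thbs4. Both were above AW in all AM mice (0.57 ± 0.22 and 0.48 ± 0.19), against 7.64% of all genes. In sedentary mice their differences were 0.13 and -0.19. The list's defining factor Scx was at 1.34 to 3.12 in all 6 active mice. Of 13 immune markers 3, of 10 adipocyte markers 3 and of 7 satellite cell markers 2 passed the minimum, and 0 of them reached an unadjusted p under 0.05. The part of these other cells in the differences above was not tested.

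**Figure D5:**
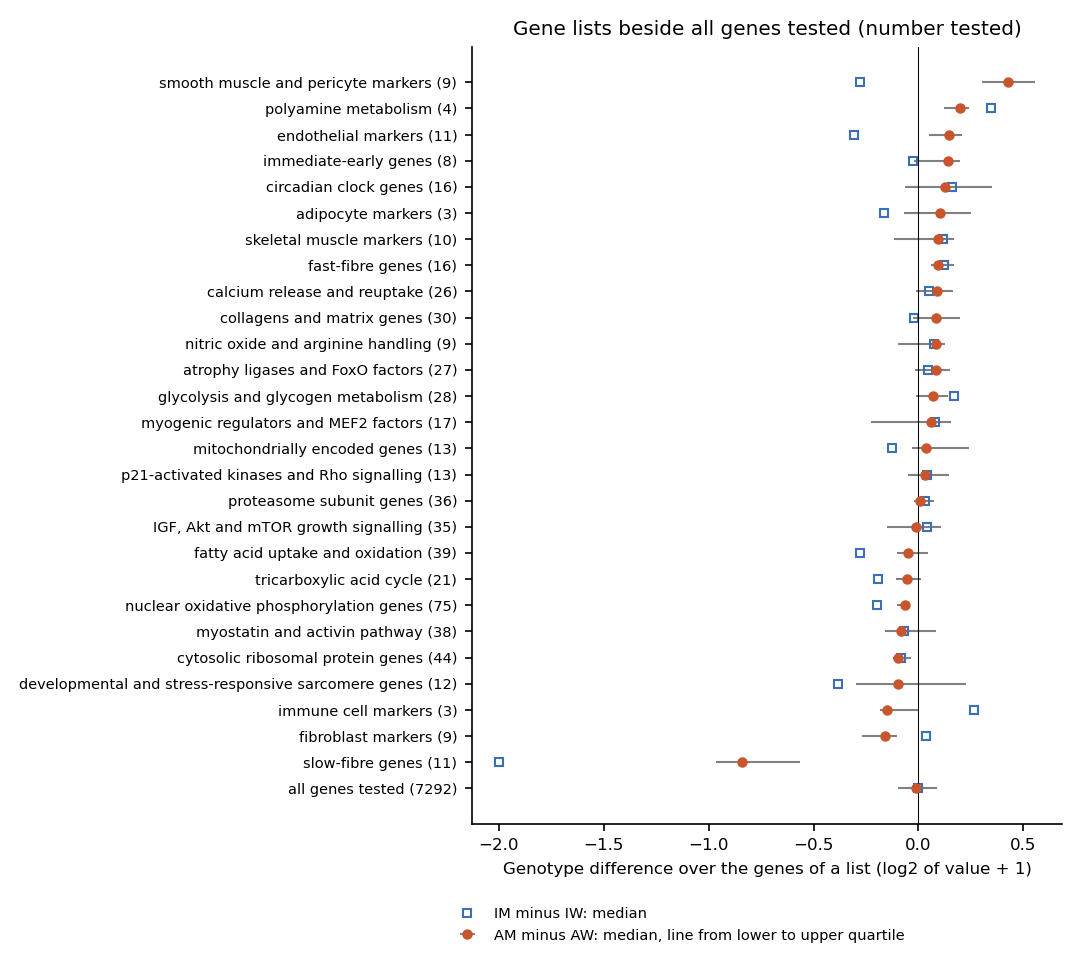
Median difference AM minus AW on log2(value + 1) of each gene list with at least 3 genes tested, with lines to the lower and upper quartile over its genes, and the median of IM minus IW as open squares. Most lists lie within 0.2 of the median of all 7292 genes (-0.01), with slow-fibre genes at -0.84 and smooth muscle and pericyte markers at 0.43.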

How the data were processed

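Polyadenylated RNA of the triceps brachii was sequenced as 65-base single-end reads on a Genome Analyzer IIx. The authors aligned the reads with CASAVA (version not given in the sources used here) to mm9, counted those in RefSeq exons, summed them to genes and counted the 13 mitochondrial messages separately. The authors deposited signal values, that is, read counts scaled to equal trimmed means (5% off each end) and not divided by gene length. Whether strand was used, and how reads shared by similar or overlapping genes were treated, is not given in the sources used here. The highest group mean was 3.0 or more in each gene, so that lower genes were not analysed here. Values under 5 were whole multiples of 1 read in 80.7% to 91.2% of cases per active mouse (tolerance 0.006). Reads were thus not recovered for nearly all genes, and no count test was run. Floors cover counting error only.

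Groups came from the sample titles, and each of the 12 columns matched 1 mouse. All 12 mice entered 1 fit with a mean per group in limma (version 3.58.1, R 4.3.3), applied to log2(value + 1), which understates the change of low genes (eBayes with trend, two-sided, Benjamini-Hochberg over 7292 genes). Calls required an adjusted p below 0.05. The script was tested on simulated data. Exact permutation tests used scipy 1.17.1. Positions came from the NCBIM37 annotation, found for 7252 of the genes tested, and current names and promoters from RefSeq (GRCm38.p6).

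Genes were named by a rule: Mstn, all calls, the 8 genes higher and 8 lower with the largest difference (minimum mean 50, unadjusted p under 0.05, no overlap), up to 4 members of each list with the smallest p, the first 3 markers of a cell type, pathway and slow-fibre genes, and the 3 smallest interaction p-values at that minimum of 50. The comparison, gene lists and rule were chosen with earlier results of these data known. The rule admitted 177 genes, and the 86 of them in the text were picked after their values were seen. Fst, Scx, Acvr2b, Gdf11 and Tgfb1 were also named after that. A listed marker gene is not reported here. Same-numbered mice did not deviate together (r = 0.11, 0.49 and -0.33 across genes for numbers 1 to 3), so the fit without a replicate block was the main one. Alternatives changed the pseudocount, minimum, scaling, variance model, block, covariate and the mice included, and the fit without 2 mice was added after the data were seen.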

Additional observations from a re-analysis of the deposited data

Results flagged for a closer look

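Fkbp5 drew attention because the genotypes were apart in opposite directions in active and sedentary mice. All 3 AM mice (58.3, 54.5 and 61.1 normalized reads) were above all 3 AW mice (40.5, 49.8 and 48.6), whereas all 3 IM mice (39.1, 45.6 and 41.1) were below all 3 IW mice (51.7, 45.9 and 50.6). The difference between the genotype differences was 0.55 ± 0.13 (SE) on the log2(value + 1) scale, with an unadjusted p of 0.000912 and an adjusted p of 0.89 in limma. Such opposite separation was seen in 9 of 7292 genes (0.123%), and separation in the same direction in 385 (5.28%).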

How the results depend on the processing

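The 15 calls between AM and AW became 6 with a minimum mean of 50, 6 in a fit of the 6 active mice alone, 29 with the slow-fibre score as a covariate and 5 without AW mouse 1 and AM mouse 3. With the number of the mouse as a replicate block 9 were called, all among the 15, and 7 with the replicate block in the 6 active mice alone, 5 of them among the 15. Leaving out single mice gave 4 to 15. The count of genes whose groups did not overlap, 1103, became 410 with the minimum of 50, 2811 without both mice and 1103 to 2375 without single mice, since fewer mice overlap less. Interaction calls, 0 in all 12 other planned settings that fit it, were 0 to 1 when single mice were left out, with 1 without IW mouse 3. Interaction genes at an unadjusted p under 0.05, 298, were 109 with the minimum of 50, 454 with no minimum, 451 with array weights and 175 without both mice. Sedentary calls, 177, were 332 with array weights, 95 with the replicate block, 107 with no variance trend, 115 with the slow-fibre covariate and 101 without AW mouse 3. The 15 called genes kept their sign in each of the 27 alternatives that tested them. Of 86 named genes tested 79 kept their sign, and 7 turned when 1 mouse was left out, with ranges over the single mice of -2.92 to 0.7214 for Myh7, -0.116 to 0.0234 for Acvr1b, -0.0539 to 0.252 for Acvr2a, -0.036 to 0.0929 for Klhdc3, -0.022 to 0.0985 for Smad2, -0.0187 to 0.198 for Smad3 and -0.095 to 0.306 for Tgfbr1. The cause was not tested. With 3 mice a group, a gene that misses the threshold is not shown to be alike between genotypes.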
